A study of Oryza sativa with 2 samples.

Results

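The transcripts described here are the NAC genes and the phytosulfokine precursor gene PSK5 that the small RNA miR164 is predicted to cut in rice mesocotyls. They were taken from the deposited table of predicted targets as every pair of a small RNA named miR164 and a transcript whose symbol starts with NAC or is PSK5, with or without reads. This gave 43 of the 25653 listed pairs, on 8 transcripts of 6 genes, out of 9660 genes listed. The genes are 3 copies of NAC021 (ZS12g0491700, ZS06g0612500 and ZS08g0123100), NAC100 (ZS02g0446800), NAC098 (ZS06g0294800) and PSK5 (ZS12g0050700). The deposited description calls all 5 NAC genes NAC domain-containing protein 89-like, so the symbols and the descriptions of these genes do not match each other.

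Mesocotyls of the indica rice cultivar P25 were collected from seedlings that had 1 h of light after 5 days of darkness (the light library) and from seedlings kept dark for 5 days (the dark library). No mutant, transgene or agent other than light is named in the labels. Cut transcripts were read by degradome sequencing, which captures the 5′ ends of uncapped RNA, so that reads pile up at the base where a small RNA guided a cut. There was 1 library per condition, so ratios between them carry no replicate check and every interval below covers counting error of reads only. PCR copies of a molecule cannot be recognised without molecular identifiers. Reads may therefore not be independent counts, and the intervals may be too narrow. A ratio of fragments does not separate a change in cutting from a change in transcript level, nor, in a whole organ, fewer cells from less RNA per cell.

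MiR164 is a conserved plant small RNA that pairs with transcripts of a subset of NAC transcription factors and directs their cleavage by an Argonaute protein. In Arabidopsis its NAC targets include CUC genes, which keep growing organs apart from each other, and the gene NAC1, which acts in auxin signalling and lateral root formation. Phytosulfokine is a small sulfated peptide that is cut from a precursor protein, secreted, and known in plants for promoting cell growth. The mesocotyl is the organ between seed and shoot base that elongates in darkness and stops elongating in light.

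The 6 mature miR164 sequences listed against these genes are shown because the alignment score of each gene differs between them. They share a core and differ at their ends, apart from 1 inner base of osa-miR164c. They are given 5′ to 3′ as the deposited table writes them (T for U), with bases 2 to 8, the seed, in capitals.
osa-miR164a: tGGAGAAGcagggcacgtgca
osa-miR164a_1ss20CA: tGGAGAAGcagggcacgtgaa
osa-miR164c: tGGAGAAGcagggtacgtgca
osa-miR164d: tGGAGAAGcagggcacgtgct
osa-miR164e: tGGAGAAGcagggcacgtgag
zma-miR164a-5p_L+1: cTGGAGAAgcagggcacgtgca
The first 5 are 21 bases long and have the same seed. Against osa-miR164a, counting from 1 at the 5′ end, osa-miR164c differs by C14T, osa-miR164d by A21T, osa-miR164e by C20A and A21G, and the variant osa-miR164a_1ss20CA by C20A. The sixth, named after maize, is osa-miR164a with 1 extra C at its 5′ end and is 22 bases long, so that its seed is shifted by 1 base.

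These sequence differences went with different penalties from gene to gene. The alignment score is a mispairing penalty that runs from 0 to 4 in the deposited table, a lower score meaning closer pairing. The NAC021 copies ZS12g0491700 and ZS06g0612500 and NAC098 had the same 5 scores with the 21-base forms, the lowest being 1 with osa-miR164d. The third NAC021 copy, ZS08g0123100, also had its lowest score with osa-miR164d, at 2.5, and had no listed pair with osa-miR164e. NAC100 stood apart, with its lowest score of 2 from osa-miR164e and a score of 4 from osa-miR164a and osa-miR164d. PSK5 had the weakest best match of the 6 genes, a score of 3 with osa-miR164a.

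**Figure D1:**
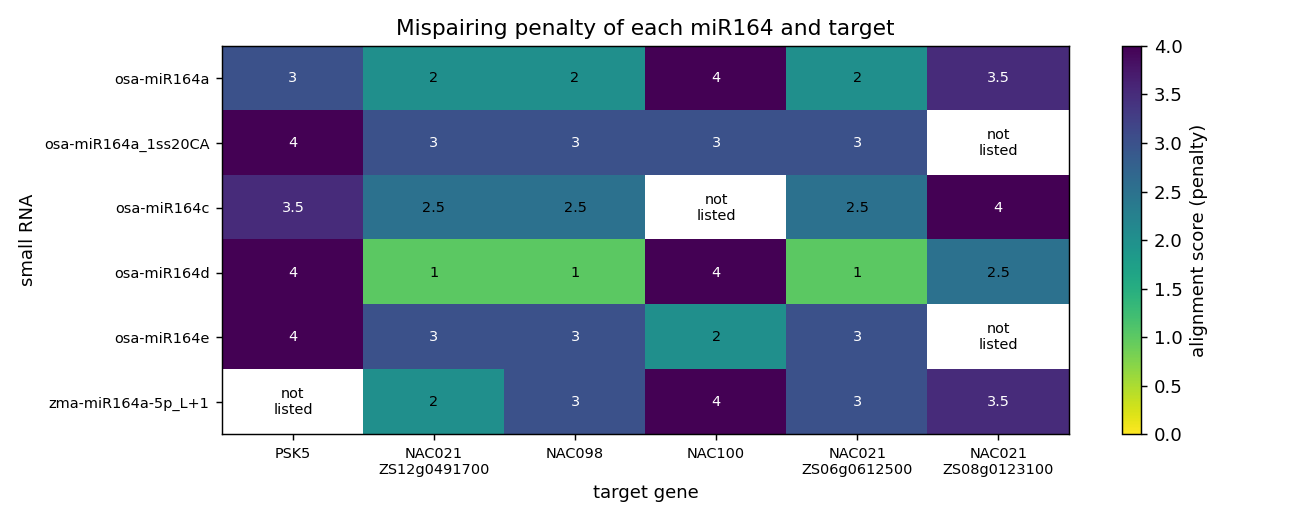
Alignment score (mispairing penalty, 0 to 4) of each mature miR164 sequence (rows) with each target gene (columns), the lowest over transcript versions. The score with osa-miR164d is 1 for 3 genes and 4 for NAC100 and PSK5, while osa-miR164e has its lowest score, 2, with NAC100.

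Reads were present at the predicted cut in 42 of the 43 pairs, and in all 42 the cleaved bond faced base 10 of miR164. This base is not evidence by itself, since the listing may have required it. Reads were present in 12.7% of all listed pairs. The pair without reads was NAC098 with the 22-base form. The pairs collapsed to 14 sites, a site being 1 position on 1 transcript version, of which 13 had reads in the light library and 14 in the dark library.

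Levels are given in TPB, the authors' reads per library total. In the deposited values 1 unshared read is worth 29.4 TPB in the light library and 64.8 TPB in the dark library, whose totals work out at 34051452 and 15422946 reads. Since a level counts read starts at 1 or 2 adjacent positions, transcript length does not enter it. A gene was called higher or lower when its light over dark TPB ratio was at least 2-fold and its exact 95% counting interval excluded 1. By this rule 3 of the 6 genes were higher in the light library (PSK5, NAC021 ZS12g0491700 and NAC100), 1 was lower (NAC021 ZS08g0123100) and 2 were not called. Among all 823 genes with reads 3.28% were called higher and 2.31% lower. Many of those genes had few reads, and among the 85 with at least 20 raw reads 20% were called higher and 5.88% lower, against 3 and 1 of the 5 miR164 targets with that many. At the level of sites 4 of the 14 were called higher, of which 2 are the transcript versions of NAC100, and 1 lower, against 2.52% and 2.37% of all 2064 sites with reads. The choice of genes was made with earlier results of these data known, so these counts are a description.

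The NAC021 copies carry annotation terms for auxin-activated signalling, shoot apical meristem specification and lateral root development. NAC021 ZS12g0491700 had 184 reads in the light library and 32 in the dark library, 5404 against 2075 TPB, a ratio of 2.60 (95% interval 1.78 to 3.92). Its fragments were more abundant in the light library beyond counting error, although with the libraries scaled by the sum over shared sites the ratio was 1.92 and the call was lost. NAC021 ZS06g0612500 had 186 reads in the light library and 74 in the dark library, 5462 against 4798 TPB, a ratio of 1.14 (0.865 to 1.51). The interval includes 1, and with the sum scaling the value lay on the other side of 1, at 0.840. NAC021 ZS08g0123100 had 14 reads in the light library and 17 in the dark library, 411 against 1102 TPB, a ratio of 0.373 (0.170 to 0.804). This copy was lower in the light library under all 3 scalings tried, on the fewest reads of the 3 copies. In the light library the order of the copies by TPB was ZS06g0612500, ZS12g0491700, ZS08g0123100, with the first pair within counting error of each other. In the dark library the order was the same, and the exact Poisson intervals of ZS06g0612500 (3767 to 6024 TPB) and ZS12g0491700 (1419 to 2929 TPB) did not overlap.

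NAC100, which carries only general terms for DNA binding and development in the deposited annotation, is a miR164 target in Arabidopsis as well. It had 122 reads in the light library and 26 in the dark library, 3583 against 1686 TPB, a ratio of 2.13 (1.38 to 3.38). The call was lost with the sum scaling, at 1.57 (1.02 to 2.49), where the interval still lay above 1. NAC098 carries terms for organ boundary formation and leaf development, and its Arabidopsis namesake is the boundary gene CUC2. It had 10 reads in the light library and 2 in the dark library, 294 against 130 TPB, a ratio of 2.26 (0.483 to 21.3). The dark value was below the floor of 3 reads (195 TPB), and a difference was not detectable at this depth.

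PSK5, annotated with growth factor activity and cell proliferation, had 52 reads in the light library and 4 in the dark library at position 53 of its transcript. These are 1527 against 259 TPB, a ratio of 5.89 (2.17 to 22.4). PSK5 had the highest ratio of the 6 genes and was called under the 3 scalings, but its interval is wide, with 4 reads on the dark side. Among the 85 genes with at least 20 raw reads its ratio ranked 3, while NAC021 ZS12g0491700 ranked 11, NAC100 ranked 16, NAC021 ZS06g0612500 ranked 36 and NAC021 ZS08g0123100 ranked 79.

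**Figure D2:**
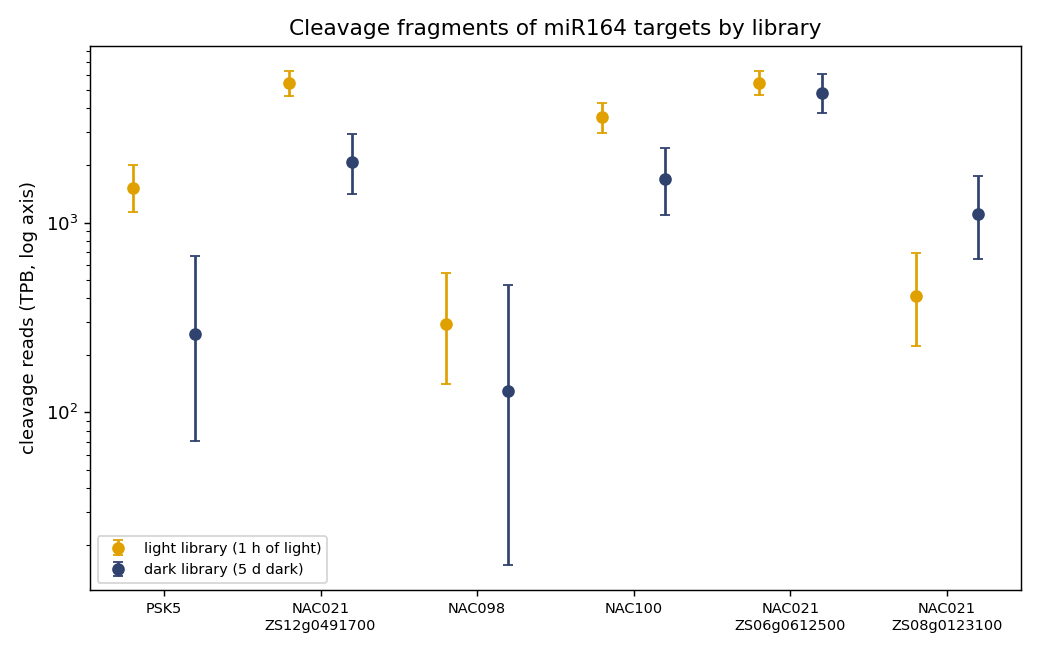
Cleavage reads of each gene in TPB (log axis) in the light library (left of each pair) and the dark library (right), with exact 95% Poisson intervals as bars. PSK5 stands at 1527 and 259 TPB, and NAC021 ZS08g0123100 is the one gene with the lower value in the light library, at 411 against 1102 TPB.

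**Figure D3:**
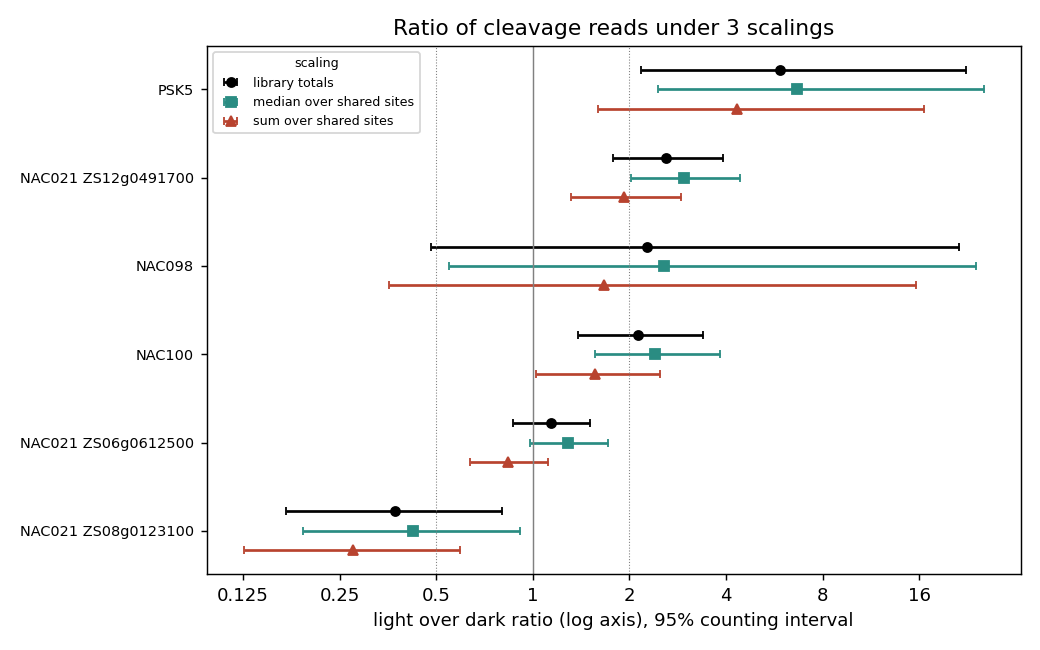
Light over dark ratio of each gene (log axis) with its 95% counting interval under 3 scalings of the libraries; the solid line marks 1 and the dotted lines 2-fold. NAC021 ZS12g0491700 and NAC100 are past 2-fold with the library totals and under it, at 1.92 and 1.57, with the sum over shared sites.

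In all, the 6 genes held 568 reads in the light library and 155 in the dark library, or 16681 against 10050 TPB. They made up 3.41% of the TPB at all listed cuts in the light library and 2.83% in the dark library. By TPB, NAC021 ZS06g0612500 ranked 13 among the 823 genes in both libraries. PSK5 ranked 35 in the light library and 112 in the dark library, and NAC021 ZS08g0123100 ranked 75 and 39, the opposite movement.

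**Figure D4:**
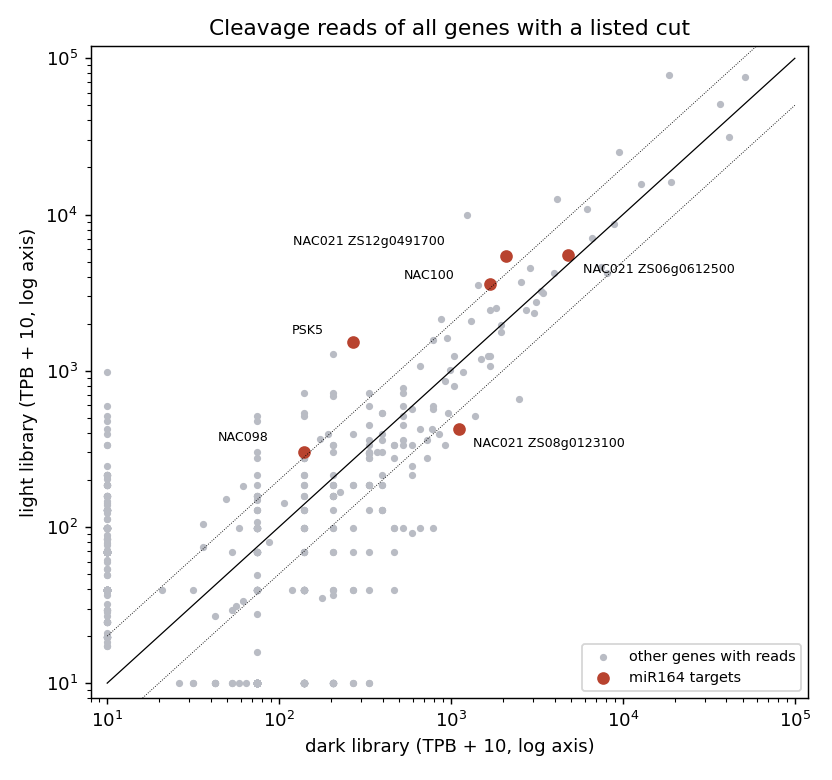
TPB in the light library (vertical) and the dark library (horizontal) for all 823 genes with reads (log axes, 10 TPB added to each value so that 0 can be drawn); the solid line marks equal values and the dotted lines 2-fold. Of the 6 miR164 targets in red, PSK5 lies farthest above the line and NAC021 ZS08g0123100 is below it.

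The scaling between the libraries cancels when one target is set against another. For each of the 15 pairs of genes the ratio of their light over dark ratios was taken from raw reads, with an exact conditional interval. Of these, 7 had a 95% interval that excluded 1, and 5 still did with intervals widened to cover all 15 pairs together. NAC021 ZS12g0491700 differed from NAC021 ZS06g0612500 by a factor of 2.29 (95% interval 1.41 to 3.76, widened 1.13 to 4.80), although both had the same scores with every 21-base miR164. It differed from NAC021 ZS08g0123100 by a factor of 6.98 (2.89 to 16.8, widened 1.95 to 25.6). NAC021 ZS12g0491700 therefore differed from both other copies in its light over dark ratio by more than counting error. NAC021 ZS06g0612500 and ZS08g0123100 differed by a factor of 3.05 (1.33 to 7.03), which the widened interval (0.913 to 10.5) no longer separated from 1. PSK5 differed from NAC021 ZS08g0123100 by a factor of 15.8 (4.10 to 72.0, widened from 2.46 up) and from NAC021 ZS06g0612500 by 5.17 (1.80 to 20.3, widened 1.22 to 45.4). NAC100 differed from NAC021 ZS08g0123100 by 5.70 (2.30 to 14.1, widened 1.53 to 21.7). PSK5, NAC021 ZS12g0491700 and NAC100 could not be told apart by their ratios, with 2.77 (0.893 to 11.4) for PSK5 over NAC100 and 1.23 (0.665 to 2.24) for NAC021 ZS12g0491700 over NAC100. No pair with NAC098 had an interval off 1.

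The same reads can also be given as the share of each gene among the miR164 target reads. This is no separate observation, and a share can be lower because other genes are higher. NAC021 ZS06g0612500 held 32.7% of these reads in the light library (Wilson 95% interval 29.0 to 36.7), against 47.7% in the dark library (40.0 to 55.6). Its level in TPB was not lower in the light library, at 5462 against 4798 TPB. NAC021 ZS12g0491700 held 32.4% in the light library (28.7 to 36.4), against 20.6% in the dark library (15.0 to 27.7). So 1 copy led in the dark library, and both held nearly equal shares in the light library. NAC021 ZS08g0123100 held 2.46% in the light library (1.47 to 4.09), against 11.0% in the dark library (6.96 to 16.9). PSK5 held 9.15% in the light library (7.05 to 11.8), against 2.58% in the dark library (1.01 to 6.45). NAC100 and NAC098 had shares whose intervals overlapped between the libraries.

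**Figure D5:**
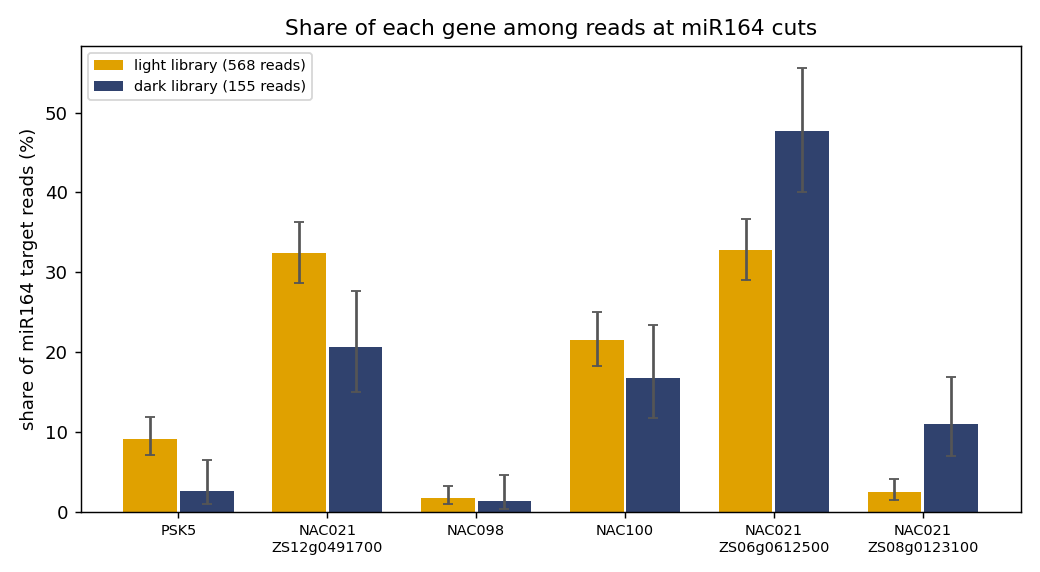
Share of each gene (%) among all reads at miR164 cuts of the 6 genes, in the light library (left bar) and the dark library (right bar), with Wilson 95% intervals. NAC021 ZS06g0612500 has a share of 32.7% in the light library, against 47.7% in the dark library, and PSK5 stands at 9.15% against 2.58%.

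Of the reads at the 2 predicted cut positions of the NAC021 copies and NAC100, nearly all lay at 1 position. Reads elsewhere on these transcripts are not listed, so the shares below do not cover whole transcripts. The 21-base forms place the cut at position 1329 of ZS12t0491700-01, 1381 of ZS06t0612500-01, 1043 of ZS08t0123100-01 and 993 of ZS02t0446800-01, and the 22-base form places it 1 base further on. NAC021 ZS12g0491700 had 182 of 184 reads at the first of these positions in the light library and 29 of 32 in the dark library. For NAC021 ZS06g0612500 these were 185 of 186 and 72 of 74 reads, for NAC021 ZS08g0123100 14 of 14 and 15 of 17, and for NAC100 116 of 122 and 24 of 26. Summed over the 4 genes, the next position held 9 of 506 reads in the light library (1.78%) and 9 of 149 in the dark library (6.04%). These 4 genes are those with reads at both positions in at least 1 library. NAC098, which has a listed pair with the 22-base form but no reads for it, was left out. The odds of the next position were 0.282 times as high in the light library (exact 95% interval 0.0973 to 0.820), a difference noticed in the data and resting on 9 reads in each library. The shares at the first position had Clopper-Pearson intervals that overlapped, 96.7 to 99.2% in the light library and 88.8 to 97.2% in the dark library. NAC021 ZS06g0612500 and NAC100 have 2 transcript versions each, with the same reads listed on both and divided by 2 matching places. The reads of the other 4 genes had 1 matching place, so the NAC021 copies did not share reads.

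The authors' degradome category ranks a site against the other positions of its transcript, and by common usage 0 marks the single highest position. Each pair has its own deposited p-value, of which the smallest over the 21-base forms is given here for each site; it need not belong to the form with the lowest score. NAC021 ZS12g0491700 and NAC098 were in category 0 in both libraries, with smallest deposited p-values of 0.0106 in the light library and 0.00923 in the dark library for each gene, both from osa-miR164e. With osa-miR164d, the form of lowest score, the deposited values were 0.0153 and 0.0133 for each gene. PSK5 was in category 0 in the light library and category 2 in the dark library, with deposited p-values of 0.00237 and 0.164. The main sites of NAC021 ZS06g0612500, of NAC021 ZS08g0123100 and of NAC100 were in category 2 in both libraries. NAC021 ZS06g0612500 thus had the most reads of the 6 genes without being listed as the peak of its transcript, with deposited p-values of 0.766 and 0.554. For NAC100 they were 0.736 in the light library and 0.523 in the dark library, and for NAC021 ZS08g0123100 0.332 and 0.201.

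Outside these 6 genes miR164 had hardly any reads. The table pairs it with a further 97 genes, and 1 of these had reads, ZS02g0027800 (deposited description Os02g0121000), with 4 reads in the light library and 0 in the dark library at a score of 4. None of the 97 was called. The 6 genes all had a best score of 3 or lower, but score alone did not set them apart. A further 4 genes paired with a mature miR164 had such a score, and none of them had reads, a count of 0 that allows up to 3 reads a library. They are ZS02g0668700, BLT, BURP4 and BCHC2. ZS02t0668700-03 had a score of 0 both with osa-miR164d, at positions 4259 to 4279, and with the other arm of the same precursor, osa-MIR164d-p3, at positions 4204 to 4224. Of the 4 genes only this 1 had scores of 3 or lower with both arms, and whether it is an ordinary target was not tested. None of the 77 pairs of p3-arm sequences had reads, against 45 of 123 pairs of the mature arm. The 43 pairs of the 6 genes are all of the mature arm and make up 42 of those 45. This contrast between arms therefore largely restates the choice of genes. At scores above 3, all 13 pairs of the 6 genes had reads, against 3 of 70 mature-arm pairs of other genes. These 13 come from NAC100, PSK5 and NAC021 ZS08g0123100 only, and the 3 from ZS02g0027800 only, so pairs are not separate cases. Most of the 13 share a site, and so its reads, with a miR164 scoring 3 or lower. A read there does not say which form cut, and the contrast is no separate result about weak pairing.

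Other NAC and phytosulfokine genes appear in the table at sites of other small RNAs. Of 20 such NAC genes 3 had reads, of which 1 was called higher and none lower. NAC079 had 17 reads in the light library and 8 in the dark library, a ratio of 0.962 (0.394 to 2.58) at a site of osa-MIR5826-p5. NAC043 had 13 reads in the light library and 0 in the dark library at another site of that small RNA, which is 1.96-fold higher against a floor of 3 dark reads, under 2-fold. NAC073 had 1 read in the light library and 0 in the dark library. NAC043 was the called gene, since a ratio to 0 reads has no upper limit and its counting interval starts at 1.38. Of the 2 other phytosulfokine genes, the receptor gene PSKR1 had no reads and the precursor gene PSK1 had 5 reads in the light library and 0 in the dark library, which was not called. PSK1 had no listed miR164 site with reads. The 3 NAC genes have no listed miR164 pair by the rule of choice, which would have placed them among the miR164 targets.

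Against other conserved small RNA targets the miR164 targets had a higher median ratio, which is given as a description of 6 chosen genes. Their median light over dark ratio was 2.19, against 0.989 over 44 genes cut by miR156, miR160, miR166, miR167, miR169, miR171, miR172, miR319, miR393 or miR396 with reads in both libraries, and 0.883 over all 255 genes with reads in both. In that comparison set 7 of 46 genes with reads were called higher and 2 lower. At 20 or more raw reads the medians were 2.13 over 5 miR164 targets, 1.06 over 37 comparison genes and 0.996 over all 85 genes. The comparison set pools several small RNA families, and no family was compared on its own. Single genes had ratios as high, such as GRF5 (miR396) at 2.47 and SCL6 ZS02g0545600 (miR171) at 6.49. AP2 genes with reads in both libraries ran from 1.19 to 4.08. A higher ratio was therefore not particular to miR164 targets. For each target with at least 20 raw reads, the nearest genes outside the 6 were found by TPB in the 2 libraries (Euclidean distance in log2(TPB + 1)). NAC098 had fewer reads and was left out. The 6 targets were not candidates, so that the nearest genes belong to other small RNAs is no result. SCL6 ZS02g0545600, a miR171 target, was nearest to PSK5 at a distance of 0.50 and CNBF2260 next at 1.16. GRF5, a miR396 target, was nearest to NAC100 at 0.24, followed by At3g47300 at 0.53. PCF7 and SPL3 lay nearest to NAC021 ZS12g0491700 at 0.52 and 0.62, HOX10 and HOX9 to NAC021 ZS06g0612500 at 0.47 and 0.59, and MT4C and REFA1 to NAC021 ZS08g0123100 at 0.40 and 0.41. Over 2 libraries such nearness says only that the levels were alike.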

How the data were processed

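Per the labels' protocols, total RNA was sequenced on a HiSeq instrument; no source used here names the aligner, target finder, genome build or annotation. The authors deposited raw read counts per pair, normalized reads (a signal, raw reads over the number of matching places, as the values show), TPB (a signal, normalized reads times 1 constant per library), a category score and an alignment score, p-values per pair, and a log2 fold change that runs dark over light, opposite to the ratios here. Library totals were inferred from that constant. Some headers name the dark library 1 h; it was identified by its TPB, which is those reads times 1 constant. In the first sheet 1 line was empty. TPB was summed over versions and positions per gene, raw reads taken from the most-read version, with exact Clopper-Pearson intervals (scipy 1.17.1). The call rule was tested on simulated data, which is no check on variation between replicates, since there was 1 library per condition. The members and lists were chosen with earlier results of these data known. Named genes are all members, genes with reads of the lists of other miR164, NAC and phytosulfokine genes, and the 2 nearest genes of each member with 20 or more reads. Gene identifiers were not matched to a genome. Alternatives were 2 other scalings, raw reads, 1 version, 1 position, a category filter, and other folds and read minimums. The other 2 sheets were left out.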

Additional observations from a re-analysis of the deposited data

How the results depend on the processing

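Calls depended on the scaling between the libraries, which no replicate can settle. With the sum over shared sites, NAC021 ZS12g0491700 stood at 1.92 and NAC100 at 1.57, neither called, NAC021 ZS06g0612500 turned to 0.840 (its main site to 0.858), and 1 gene and 2 sites were called higher, in place of 3 genes and 4 sites. That scaling divides all ratios by 1.36 and gives 12 genes called higher and 44 lower over the whole table, against 27 and 19 with the library totals; the median scaling divides them by 0.883, which raises them. With the median scaling no site was called lower, in place of 1, since position 1043 of NAC021 ZS08g0123100 lost its call at 0.479. Asking for 3-fold left 1 gene higher and 0 lower. Sites with at least 3 raw reads in the dark library numbered 8, in place of 14. Raw reads, 1 transcript version, the position with most reads and the category filter changed no gene's call. The 3 comparisons between NAC021 copies kept intervals off 1 at the position with most reads, an alternative chosen after seeing the data. No paired analysis was possible because there is 1 library per condition. Depth limits NAC098 and the second positions.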
